A study of Homo sapiens with 2 samples.

Results

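The Polo-like kinases are serine/threonine kinases named after a fly mitotic gene, and the 4 described here are PLK1, PLK2, PLK3 and PLK4, among 18417 genes measured. They were chosen by name: every probe set whose platform gene symbol was one of these 4 was taken, which gave 1 probe set per gene. RNA came from H1299, an established line from a human lung carcinoma of the non-small cell type, which has no p53 of its own. One group was H1299 cells with p53 and the other was H1299 cells labelled as the negative control. Both groups share the p53-null background of the line, and neither the way p53 was supplied nor the time it was present is stated in the labels. Each group was measured once, on 1 Affymetrix array, so no value carries a replicate error or a p-value. Each difference below is the log2 intensity with p53 minus that in the negative control and describes these 2 arrays alone.

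PLK1 is the kinase of mitotic entry, centrosome maturation, chromosome segregation and cytokinesis. It is switched on by Aurora A with its cofactor Bora, binds substrates that other kinases have primed through its C-terminal polo-box domain, and is destroyed through the anaphase-promoting complex as cells leave mitosis. PLK4 is the kinase that starts centriole duplication, which it does with STIL and SASS6, and it limits its own level by triggering its own degradation. PLK2 and PLK3 are the stress-responsive members: both were first described as genes that serum or growth factors induce within a short time, and both are known as p53 target genes. Genes for mitotic and centriolar proteins are known to be transcribed mostly in cells that pass through S, G2 and M phase, so in RNA of a whole culture a smaller share of such cells and less RNA per cell cannot be told apart.

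The family divided into a lower and a higher pair. PLK1 and PLK4 were lower with p53, by 4.31-fold and 6.31-fold, and PLK2 and PLK3 were higher, by 3.71-fold and 9.28-fold. All 4 genes thus differed by at least 2-fold, the rule of size used here to call a gene, with 2 called in each direction. Of the 11436 genes that reached 7.38, the median over all probe sets, in at least 1 array, 8.21% were called higher and 5.79% were called lower. Over these genes the median difference was -0.01, and 14.6% had exactly the same value in both arrays.

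The stretch just before the annotated transcription start is shown for each gene, since the members fell into opposite pairs and promoters of cell cycle genes are known for short shared elements. Each line holds the 250 bases before the start, 5′ to 3′ on the strand of the gene, from RefSeq on GRCh38.p14. Capitals mark every match, on either strand, to a set of short motifs.
PLK1 (chr16:23678639-23678888, plus strand): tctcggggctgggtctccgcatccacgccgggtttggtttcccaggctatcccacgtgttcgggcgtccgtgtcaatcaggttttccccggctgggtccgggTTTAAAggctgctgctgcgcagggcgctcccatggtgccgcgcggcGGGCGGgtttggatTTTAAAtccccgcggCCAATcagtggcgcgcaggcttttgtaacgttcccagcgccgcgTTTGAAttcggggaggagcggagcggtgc
PLK4, the most upstream of its 3 annotated starts (chr4:127880643-127880892, plus strand): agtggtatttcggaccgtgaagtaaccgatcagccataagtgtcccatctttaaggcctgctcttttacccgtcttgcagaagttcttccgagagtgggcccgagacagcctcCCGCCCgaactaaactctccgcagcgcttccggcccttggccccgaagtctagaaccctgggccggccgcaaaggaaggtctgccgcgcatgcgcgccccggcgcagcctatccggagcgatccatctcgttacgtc
PLK2 (chr5:58460087-58460336, minus strand): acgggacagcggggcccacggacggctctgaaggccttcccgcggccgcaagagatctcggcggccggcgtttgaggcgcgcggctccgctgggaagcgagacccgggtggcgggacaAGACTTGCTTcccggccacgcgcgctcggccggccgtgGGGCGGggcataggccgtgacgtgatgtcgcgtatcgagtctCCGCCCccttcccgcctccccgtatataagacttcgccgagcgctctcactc
PLK3 (chr1:44800127-44800376, plus strand): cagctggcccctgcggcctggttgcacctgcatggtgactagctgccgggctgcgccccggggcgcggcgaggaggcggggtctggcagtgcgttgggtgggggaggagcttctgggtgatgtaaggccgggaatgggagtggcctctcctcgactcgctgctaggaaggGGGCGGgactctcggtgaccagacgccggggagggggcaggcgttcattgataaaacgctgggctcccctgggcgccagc

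Motifs were searched in windows of 300 bases, which add the 50 bases after the start to those shown, in 35116 RefSeq promoter windows in all. The set comprised the CCAAT box (CCAAT, read by the factor NF-Y), the cell cycle genes homology region or CHR (TTTGAA or TTCGAA or TTTAAA or CTTGAA, read by the MuvB complexes), E2F sites (TTTCCCGC or TTTCGCGC or TTTGCCGC or TTTGGCGC), the GC box (GGGCGG), the cAMP response element (TGACGTCA), and the consensus half-site of p53 and the CArG box of serum response factor by name. No match of one motif overlapped another in the members' windows. PLK1 held a CCAAT box at bases -73 to -69 from the start, TTTGAA at -29 to -24 and TTTAAA at -148 to -143 and again at -88 to -83. A CCAAT box occurred in 34.6% of all windows, TTTGAA in 15.2%, TTTAAA in 12.2% and any CHR form in 32.2%. A CCAAT box together with any CHR form occurred in 12.4%. The PLK4 window shown had TTTGAA on the opposite strand at +39 to +44, inside the transcript and so beyond the bases printed, and no CCAAT box. A CCAAT box lay on the opposite strand at -86 to -82 from the most downstream of the 3 PLK4 starts. PLK2 held no CCAAT box and no CHR form, but 1 match to the p53 half-site at -132 to -123, a match found in 6.63% of all windows. PLK3 matched the GC box alone, a motif in 44.95% of all windows. All 4 genes held a GC box in at least 1 window, as did 78.3% of the filtered genes that had a window. No member's window matched an E2F, cAMP response or CArG motif as searched. These matches describe letters in short windows and are not binding sites, and p53 sites farther from a start would not be seen.

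**Figure D1:**
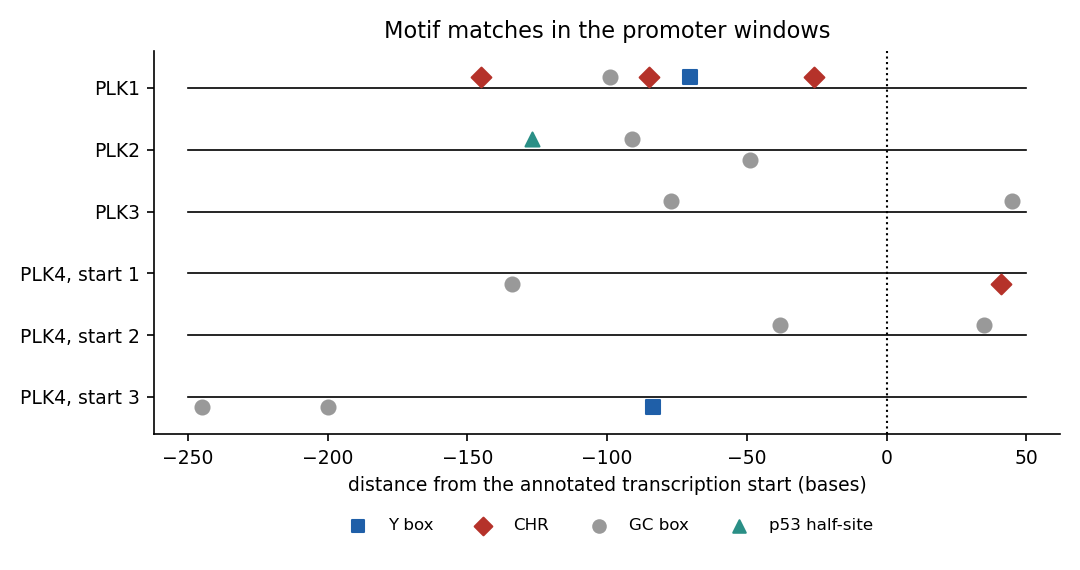
Positions of motif matches in the promoter windows of the 4 genes, with 3 annotated starts for PLK4. The horizontal axis is the distance in bases from the annotated start (dotted line), markers above a line are on the strand of the gene and those below on the opposite strand, and the Y box is the CCAAT box. PLK1 holds a CCAAT box and 3 CHR matches, and PLK2 and PLK3 hold neither.

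The log2 intensity of PLK1 was 9.59 with p53 against 11.69 in the negative control, so the p53 array was the lower one. The difference was -2.11, which placed it 64th from the lowest of the 11436 genes, so 0.551% of them lay lower. PLK1 was bright in both arrays: the control value exceeded 95.7% of all probe sets on its array and the p53 value 81.7%.

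PLK4 stood at 6.996 with p53 and 9.65 in the negative control. Its difference of -2.66 was the 10th lowest of the 11436 genes, or the 15th lowest with an offset of 32 added to the linear intensity before log2. With p53 its intensity was under the filter level of 7.38, so PLK4 passed the filter through the control array alone and the size of its fold rests on a dim signal. That offset, which shrinks folds of dim genes, left a difference of -2.39. The difference of PLK4 lay 0.55 on the log2 scale, or 1.46-fold, below that of PLK1.

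PLK2 stood at 11.93 with p53 and 10.04 in the negative control, well above the filter level in both arrays. The difference was 1.89, the 297th highest, with 2.59% of the filtered genes higher. PLK2 was thus the least extreme of the 4 members by rank.

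For PLK3 the log2 intensity was 11.19 with p53 against 7.98 in the negative control. The difference of 3.21 was the 45th highest, and 0.385% of the filtered genes lay above it. Its control value exceeded 60.1% of all probe sets on that array and its p53 value 93.6%, so PLK3 went from an intermediate to a bright signal. The PLK3 difference exceeded that of PLK2 by 1.32 on the log2 scale, or 2.50-fold. Between the pairs the smallest gap, PLK2 against PLK1, was 3.998 and the widest, PLK3 against PLK4, was 5.87 on the log2 scale. PLK5, a further family member that in humans lacks a working kinase domain, is no member of the set described here and was at 7.99 with p53 against 7.32 in the control, so its difference of 0.67 did not reach 2-fold.

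**Figure D2:**
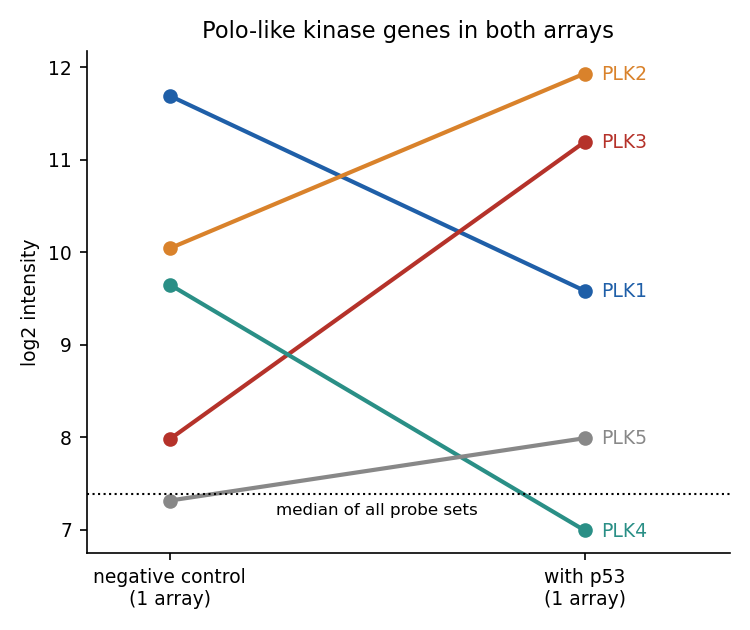
Log2 intensity (vertical axis) of PLK1 to PLK5 in the negative control array and the array with p53, 1 point per array joined by a line for each gene, with no error bars because each group has 1 array. The lines of PLK1 and PLK4 descend to 9.59 and 6.996 and those of PLK2 and PLK3 climb to 11.93 and 11.19; heights of different genes are not comparable, as each has its own probes.

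**Figure D3:**
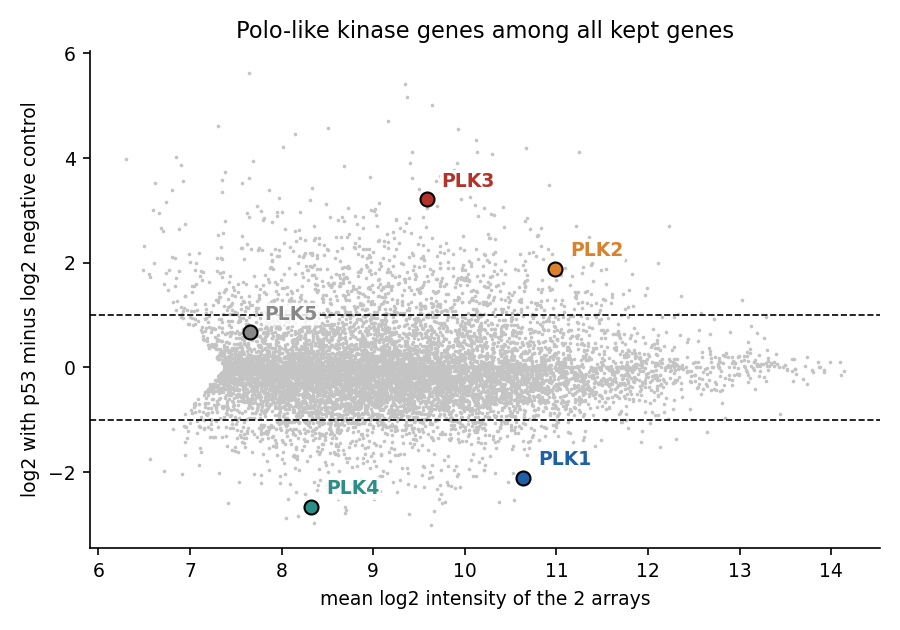
Difference between the arrays on the log2 scale (vertical axis) against the mean log2 intensity of both arrays (horizontal axis) for the 11436 filtered genes in grey, with the Polo-like kinase genes in colour and dashed lines at 2-fold. PLK3 and PLK2 lie above the upper line at 3.21 and 1.89, PLK1 and PLK4 below the lower line at -2.11 and -2.66, and PLK5 between the lines.

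The genes whose pair of log2 values was nearest to each member were found by the Euclidean distance over the 2 arrays. For PLK1 these were H3C2, CCNA2 and ANLN, with differences of -2.05, -2.01 and -2.19 and distances of 0.10 to 0.25. For PLK4 they were DEPDC1 (-2.41), CDC6 (-2.98) and ESCO2 (-2.33), at distances of 0.20 to 0.24. PLK2 was nearest to DCUN1D1 (1.78), SMAD5 (1.68) and TGS1 (1.91), and PLK3 to SUSD6 (3.19), the pseudogene ANKRD20A5P (3.13) and RALGDS (3.05). With 2 arrays such likeness is only a shared pair of values.

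Genes that act with PLK1 at mitotic entry were mostly lower as well. All of the 15 listed genes were measured, of which 13 were at least 2-fold lower, 1 was higher and 1 was neither, with a median difference of -1.62. Over all 18417 genes without a filter, the base for these list counts, 3.7% were at least 2-fold lower and 5.22% higher, with a median of 0.00. CENPF, a kinetochore protein gene, had the largest difference of the list, at 8.54 with p53 against 10.95 in the control (-2.41). CDK1, the mitotic cyclin-dependent kinase gene, stood at 7.66 against 9.88 (-2.22). AURKA, which encodes the Aurora A kinase that activates PLK1, stood at 9.08 against 11.16 (-2.07), and the cyclin gene CCNA2 at 9.52 against 11.53 (-2.01). PLK1 itself lay lower than 13 of these 15 genes. The 1 higher gene was WEE1, named with its value known, the kinase that holds CDK1 inactive and that PLK1 marks for destruction, at 11.05 with p53 against 9.89 in the control (1.16). The remaining gene was PKMYT1, named likewise, the other inhibitory kinase of CDK1, at -0.76. BORA, the activating cofactor of the Aurora A kinase towards PLK1, named for that role with its value known, had a difference of -1.28.

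Docking partners and substrates of PLK1 were more mixed. Of 24 genes, 13 were at least 2-fold lower, 1 was higher and 10 were neither, with a median of -1.31. FBXO5, the anaphase-promoting complex inhibitor that PLK1 marks for destruction, stood at 8.46 with p53 against 11.04 in the control (-2.58). The central spindle kinesin gene KIF23 stood at 8.50 against 11.07 (-2.57). CLSPN, whose product claspin is degraded after PLK1 phosphorylation, was at 6.82 against 9.33 (-2.51), and SGO1, the guardian of centromeric cohesion, at 7.36 against 9.87 (-2.51). Both CLSPN and SGO1 were under the filter level with p53. TOPORS, a ubiquitin and SUMO ligase gene named with its value known, was the 1 higher gene, at 9.11 against 7.78 (1.34). Among the centrosome and centriolar satellite genes of this list, NEDD1 had a difference of -0.77 and CEP192 one of -0.36, while PCNT, NINL and KIZ were equal in both arrays. These genes were also named after their values were seen. Exact equality was found for 3 of the 24 genes here, beside 14.6% of the filtered genes. MPLKIP, whose product is named for its interaction with PLK1 and which was outside the list and added with its values known, had differences of 0.07, -0.21 and 0.08 at its 3 probe sets.

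Genes for the shut-off of PLK1 differed less. Of 19 genes, 5 were lower by at least 2-fold, none was higher and 14 were not called. The median was -0.43. The lower ones were led by UBE2C (-1.91), which encodes the ubiquitin-conjugating enzyme of the anaphase-promoting complex and stood at 8.35 with p53 against 10.27. CDC20, its mitotic activator, was at 10.11 against 11.50 (-1.39), CDC27, a subunit, at 8.83 against 10.00 (-1.17), and UBE2S, the chain-elongating enzyme, at 9.43 against 10.57 (-1.14). FZR1, the activator that directs PLK1 destruction at mitotic exit and was named for that role with its value known, had a difference of -0.26. The fifth lower gene, ANAPC1, named after its value was seen, sat on the threshold at -1.002 and was under 2-fold in 4 of the 6 alternative treatments. With the trend on intensity removed 3 genes of this list were called.

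Of the genes that act with PLK4 or in centriole duplication, most were not called. All 30 listed genes were measured, of which 10 were at least 2-fold lower, 1 was higher and 19 were neither, with a median of -0.35. That median was -0.21 with the trend on intensity removed, and the mean was -0.53. STIL, which binds and activates PLK4 at the site of the new centriole, stood at 8.12 with p53 against 10.31 in the control (-2.20). SASS6, the cartwheel protein gene, stood at 7.02 against 9.06 (-2.04), under the filter level with p53. CEP97, which encodes a partner of the centriole cap protein CP110, stood at 7.30 against 8.97 (-1.67), also under that level with p53. CEP120, a centriole elongation gene, was the 1 higher member, at 10.92 against 9.14 (1.78). PLK4 had a lower difference than each of the 30, also with the offset of 32. The other genes of this list given here were named for their roles with their values known. The genes for the scaffolds that recruit PLK4 had differences of -1.23 (CEP152), -0.54 (CEP63) and -0.36 (CEP192). CPAP, a centriole wall gene, was at -1.33. With p53 CEP152 (7.24), CEP63 (7.32) and CPAP (6.89) were under the filter level. So were CEP135 (7.06) and CEP85 (7.30), with differences of -1.40 and -1.47. In all, 7 of the 30 genes passed the filter through the control array alone. All of those but CEP63 were called lower, so much of the lower count rests on dim signals with p53. The ubiquitin ligase genes that act on PLK4 protein were near no difference, with BTRC at -0.20, FBXW11 at 0.14, SKP1 at 0.14 and CUL1 at -0.29. RTTN, a centriole assembly gene, was close to the threshold at -1.04, and 9 genes were called lower with the trend on intensity removed or with the offset of 32.

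The p53 target list, which came from general knowledge and whose members include genes known to be higher in these arrays, was mostly higher like PLK2 and PLK3. Of 21 listed genes 19 were analysed here, 16 of them at least 2-fold higher and none lower, with a median of 2.17. The largest differences were those of TP53I3, an oxidoreductase gene (4.19), TP53INP1 (4.11), the stress-response gene SESN1 (3.77) and CDKN1A, the p21 gene (3.49). PLK3 was exceeded by those 4 genes, and PLK2 by 11 of the 19. PLK3 therefore lay in the upper part of this list and PLK2 in its middle. Both PLK2 (1.89) and PLK3 (3.21) were more different than GADD45A (0.74), the growth arrest gene, and BBC3 (0.15), the gene of the death protein PUMA, named for comparison after their values were seen.

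Immediate early genes, the class in which PLK2 and PLK3 were first described, were mixed. Of 28 listed genes 27 were analysed here, 6 at least 2-fold higher, 2 lower and 19 neither, with a median of 0.06. That median was 0.19 with the trend on intensity removed and 0.10 over the members above the filter, and the mean was 0.35. NR4A1, an orphan nuclear receptor gene, stood at 10.74 with p53 against 7.97 in the control (2.77), the transcription factor gene EGR1 at 12.04 against 9.39 (2.65) and JUNB at 11.27 against 9.26 (2.01). MYC was the lowest of the list, at 9.27 against 10.91 (-1.65). These 3 higher genes exceeded PLK2, and none of the 27 exceeded PLK3. The other higher members, named after their values were seen, were NR4A3 (1.64), ZFP36 (1.44) and FOS (1.31), and the other lower one was KLF6 (-1.24).

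Partners and substrates ascribed to PLK2 and PLK3 did not share their direction. Of 16 listed genes 13 were analysed here, with 1 at least 2-fold higher, 4 lower, 8 neither and a median of -0.13. The median was -0.73 over the 11 members above the filter, and the mean over all 13 was -0.39. FBXW7, the substrate receptor of a cyclin E ubiquitin ligase, was at 9.56 with p53 against 7.84 in the control (1.72). The phosphatase genes CDC25C (-1.62) and CDC25A (-1.39) and the kinase gene VRK1 (-1.48) were lower, as was CPAP (-1.33), named with its value known, which this list shares with the centriole list. CDC25C and CDC25A are shared with the mitotic entry list, so of these lower genes only VRK1 was not already counted above. With p53 CDC25C (6.87) and CPAP (6.89) were under the filter level. CIB1, a calcium-binding partner of PLK2 and PLK3 named for that role with its value known, stood at 9.87 against 9.84. None of the 13 genes exceeded PLK2.

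**Figure D4:**
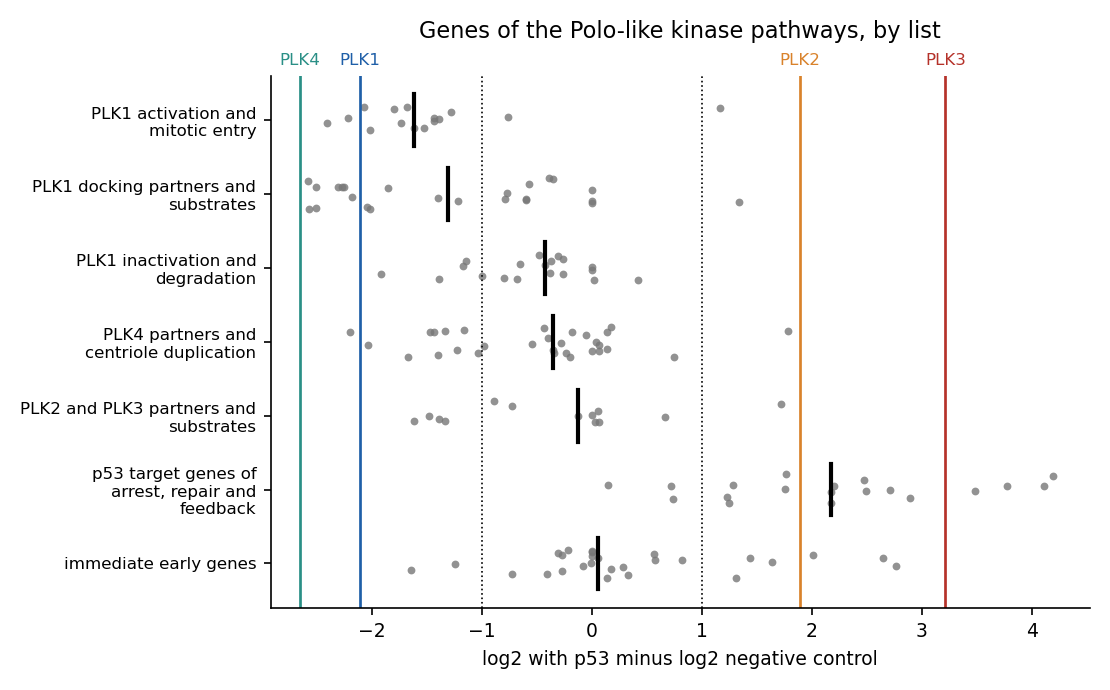
Differences between the arrays on the log2 scale (horizontal axis) for the genes of 7 lists (rows), 1 grey point per gene with vertical jitter that carries no value, the median as a black bar and dotted lines at 2-fold. Coloured lines mark the 4 members: PLK4 at -2.66 lies to the left of every listed gene, an order that turned for FBXO5 (-2.48) and KIF23 (-2.47) with the offset of 32, where PLK4 was at -2.39, and PLK3 at 3.21 lies to the right of every gene but 4 of the p53 target list.

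Markers of the cell line and of other cells, named here with their values known, were mostly equal or near equal in both arrays. Of the listed epithelial keratin genes, KRT8 and KRT18 stood between 12.47 and 12.84, and KRT7 at 7.72 with p53 and 7.80 in the control. The mesenchymal gene VIM stood at 12.92 and 13.07, while KRT19 (7.28 in both arrays), EPCAM and CDH1 were below the filter level. All 4 haematopoietic and all 4 endothelial markers analysed here were below it and were equal in the p53 and control arrays. The 5 fibroblast markers also had equal values, with COL1A1 at 8.14 above the filter level and the others below it. Exact ties were common among other genes below that level too. Their share there was not computed, so these ties are no measure of how stable the markers were. Of 5 lung markers, 4 were equal and SCGB1A1, an airway secretoglobin gene, stood at 8.53 with p53 against 7.09, a difference of 1.44. The summed level of these 5 lung markers was 9.63 with p53 and 9.12 in the control on the log2 scale, and its part in the results was not tested.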

How the data were processed

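Total RNA of H1299 cells was hybridised to 1 Affymetrix array per group. The deposited values are log2 intensities of 33297 probe sets, which the authors summarised with RMA (robust multi-array averaging), per the submitters' processing notes. That the scale is log2 was read from the range, 1.48 to 14.68 with p53. Such summarising makes array distributions alike (both medians were 7.38), so a change in total RNA per cell would not show. The sources used here do not give the software version, probe set definition or build. An array yields no counts, and 1 array per group limits the precision.

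Probe sets with 1 gene symbol in GEO's platform annotation (19460) were named, with symbols updated through RefSeq. For genes with several probe sets, the one with the highest mean was used. Named genes were the members, PLK5, the up to 4 genes per list with the largest absolute difference and the 3 nearest genes per member; other names are marked in the text. The members and lists were chosen with earlier results of these data known, and several listed genes were not analysed here. Calling and motif search were tested on simulated data. Python 3.11.15, numpy 2.4.6, pandas 2.3.3, statsmodels 0.14.6 and matplotlib 3.10.9 were used.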

Additional observations from a re-analysis of the deposited data

How the results depend on the processing

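No alternative ended the 2-fold call or turned the direction of PLK1, PLK2, PLK3 or PLK4, among centring on the median, a lowess fit against intensity subtracted (span 0.3), averaging of probe sets, quantile normalization, an offset of 32 before log2 and a floor at the 25th percentile. A shift of over 0.119 counted as a move; this is the standard deviation, from the median absolute deviation, between differences of 2 probe sets of 1 gene (334 genes), which holds no variation between cultures. Without the intensity trend PLK1 stood at -1.97, PLK2 at 2.01 and PLK3 at 3.36; with the offset PLK3 stood at 3.06 and PLK4 at -2.39. The remaining 19 of 24 values for the members moved less, but this count includes the values from averaging and the floor, which were fixed in advance. At 1.5-fold 1642 genes were higher and 1777 lower, and at 3-fold 450 were higher and 175 lower, against 939 and 662 at 2-fold; these counts change because the threshold does. The other 16 counts stayed within 1.5 times. Of 56 list values, 12 moved; those over 1.5 times are given with the centriole, immediate early and PLK2 and PLK3 partner lists. No paired analysis was possible because each group has 1 array, and for the same reason no replicate could be left out. The signal over background was not measured here, which bears most on PLK4 with p53.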

Other observations

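Promoter windows of the other genes were searched in the same way, by call. Of the 11436 filtered genes, 9212 had a RefSeq window, and a gene was counted when any of its windows held the motif. Among 553 genes at least 2-fold lower with p53, 26.8% held a CCAAT box and a CHR form in the same window, as PLK1 does. PLK4 was not counted there, since its CHR form and its CCAAT box lie in windows of different starts. The share with both in the same window was 10.0% of 770 genes at least 2-fold higher and 11.3% of 7889 genes with neither. TTTGAA alone was found in 30.2%, 15.6% and 12.1% of these groups, and E2F forms, which no member held, in 13.9%, 4.68% and 6.63%. The p53 half-site, found in PLK2 and not in PLK3, was present in 7.59% of lower, 13.2% of higher and 7.04% of the remaining genes. These shares are descriptions of short windows without a test, and differences in base composition between the groups were not examined.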
